A study of Mus musculus with 29 samples.

Results

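The 9 genes described here encode amino acid transporters that skeletal muscle uses at the cell surface and the lysosome. They were selected by gene symbol, as 9 of the 22537 symbols in the deposited table. The genes are Slc38a4, Slc38a2 and Slc38a3 (sodium-coupled carriers of neutral amino acids), Slc7a2 (a carrier of arginine and lysine), Slc7a5, Slc7a8 and their heavy chain partner Slc3a2 (heterodimers that exchange large neutral amino acids), Slc1a5 (an exchanger of glutamine) and Slc36a1 (a proton-coupled carrier of small amino acids, found on the lysosome). The whole tibialis anterior (TA) muscle was taken for poly-A sequencing from male C57BL/6 mice of an aging colony that had been tested for physical function, and the labels name no drug and no altered gene. The groups were 7 mice of 6 months (6m), 7 of 24 months (24m) and 8 labelled as 28 months or older (28m). The first sequencing run held the 24m and 6m mice, and the second held the 28m mice and a further library of each 6m mouse, which made 29 libraries of 22 mice. The sample labels were used for these numbers, since the design text of the series has 8 mice of 24 months and 7 of 28.

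Muscle takes up amino acids by transporters that work in series. Sodium-coupled carriers such as Slc38a2 and Slc38a4 concentrate small neutral amino acids in the fibre, and exchangers such as the dimer of Slc7a5 and Slc3a2 pass glutamine outwards in return for leucine and other large neutral amino acids. Signals from leucine and arginine inside the cell converge on the lysosome, where the Rag GTPases recruit the kinase complex mTORC1, which promotes protein synthesis.

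The depth was between 17633475 and 33499162 counts per library. Levels are given as CPM, counts normalised to library size after TMM scaling (the trimmed mean of M values) of the 29 libraries, and as RPKM, CPM per kilobase of exon, where genes are compared with each other. Differences are log2 fold changes (log2fc) with their standard errors (SE), and adjusted p values (padj) come from the quasi-likelihood test of edgeR, adjusted by Benjamini-Hochberg across the genes tested in a comparison. A gene passed with a padj under 0.05, and it was a DEG where its absolute log2fc was also at least 1. All 9 transporters passed the filter on low counts in each comparison. The labelled tissue was checked by fast fibre markers, 10 genes that summed to between 145200 and 242800 CPM over the libraries.

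Sequences around the annotated start (250 bases before it to 50 after) were taken from RefSeq, build GRCm38.p6, which matched 5 of the 9 members (Slc38a4, Slc38a2, Slc7a8, Slc3a2 and Slc36a1). Those of 3 transporters that fell at 28m are shown, written 5′ to 3′ on the strand of the gene, so that the start regions behind these results can be read. They lie at chr15:97055907-97056206 (minus strand) for Slc38a4, the outermost of its 3 annotated starts, at chr15:96699679-96699978 (minus strand) for Slc38a2 and at chr11:55204090-55204389 (plus strand) for Slc36a1. Capitals mark matches to CACGTG, the core of the CLEAR element of lysosomal genes.
Slc38a4: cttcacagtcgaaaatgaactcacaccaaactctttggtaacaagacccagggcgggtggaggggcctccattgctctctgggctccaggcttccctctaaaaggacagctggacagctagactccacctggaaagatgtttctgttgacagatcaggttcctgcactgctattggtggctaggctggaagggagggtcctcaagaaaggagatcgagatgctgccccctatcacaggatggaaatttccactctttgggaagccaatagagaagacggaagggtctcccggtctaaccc
Slc38a2: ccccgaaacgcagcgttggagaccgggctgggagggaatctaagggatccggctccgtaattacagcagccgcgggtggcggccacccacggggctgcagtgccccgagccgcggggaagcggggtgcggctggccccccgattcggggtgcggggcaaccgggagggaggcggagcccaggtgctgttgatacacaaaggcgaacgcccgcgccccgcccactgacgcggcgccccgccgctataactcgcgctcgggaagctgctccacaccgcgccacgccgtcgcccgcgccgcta
Slc36a1: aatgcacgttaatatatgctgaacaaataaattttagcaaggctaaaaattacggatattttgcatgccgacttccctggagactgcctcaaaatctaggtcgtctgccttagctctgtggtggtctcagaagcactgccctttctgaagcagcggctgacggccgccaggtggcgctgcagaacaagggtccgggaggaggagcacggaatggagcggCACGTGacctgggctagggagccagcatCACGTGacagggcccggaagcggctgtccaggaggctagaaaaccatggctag
Slc36a1 held 2 matches to CACGTG, at bases 220 and 248 of its window, and the windows of the other 4 genes held none. The letters occurred in 7.15% of 32851 promoter windows of the same length. TGATGNAA, the amino acid response element, was searched on both strands and occurred in 3.97% of all windows and in none of those of the 5 genes. The windows end 50 bases after the start, so elements farther into a gene, as in an intron, were not searched. The 2 motifs do not overlap in letters, and a match is a description of the sequence.

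The transporters differed widely in level at 6m. Slc38a4 had the highest mean in the second run at 35.6 ± 11.4 RPKM (SD, n = 7 mice), followed by Slc38a3 at 24.2 ± 3.12 RPKM, Slc38a2 at 18.8 ± 6.25 RPKM and Slc7a2 at 11 ± 2.14 RPKM. The heavy chain Slc3a2 followed at 8.99 ± 0.721 RPKM and the glutamine exchanger Slc1a5 at 4.61 ± 0.667 RPKM. Slc7a8, the light chain of the second exchanger, was at 2.82 ± 0.375 RPKM and Slc36a1 at 2.22 ± 0.313 RPKM. Slc7a5 was the lowest at 0.704 ± 0.112 RPKM. The ranges of neighbours in this order did not overlap between Slc3a2 and Slc1a5, between Slc1a5 and Slc7a8 and between Slc36a1 and Slc7a5, and they overlapped for the other 5 pairs of neighbours. At 28m, Slc38a4 was at 10.01 ± 3.61 RPKM (n = 8), under Slc38a3 at 17.9 ± 2.37 RPKM, Slc38a2 at 12.3 ± 2.86 RPKM and Slc3a2 at 11.2 ± 2.55 RPKM.

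**Figure D1:**
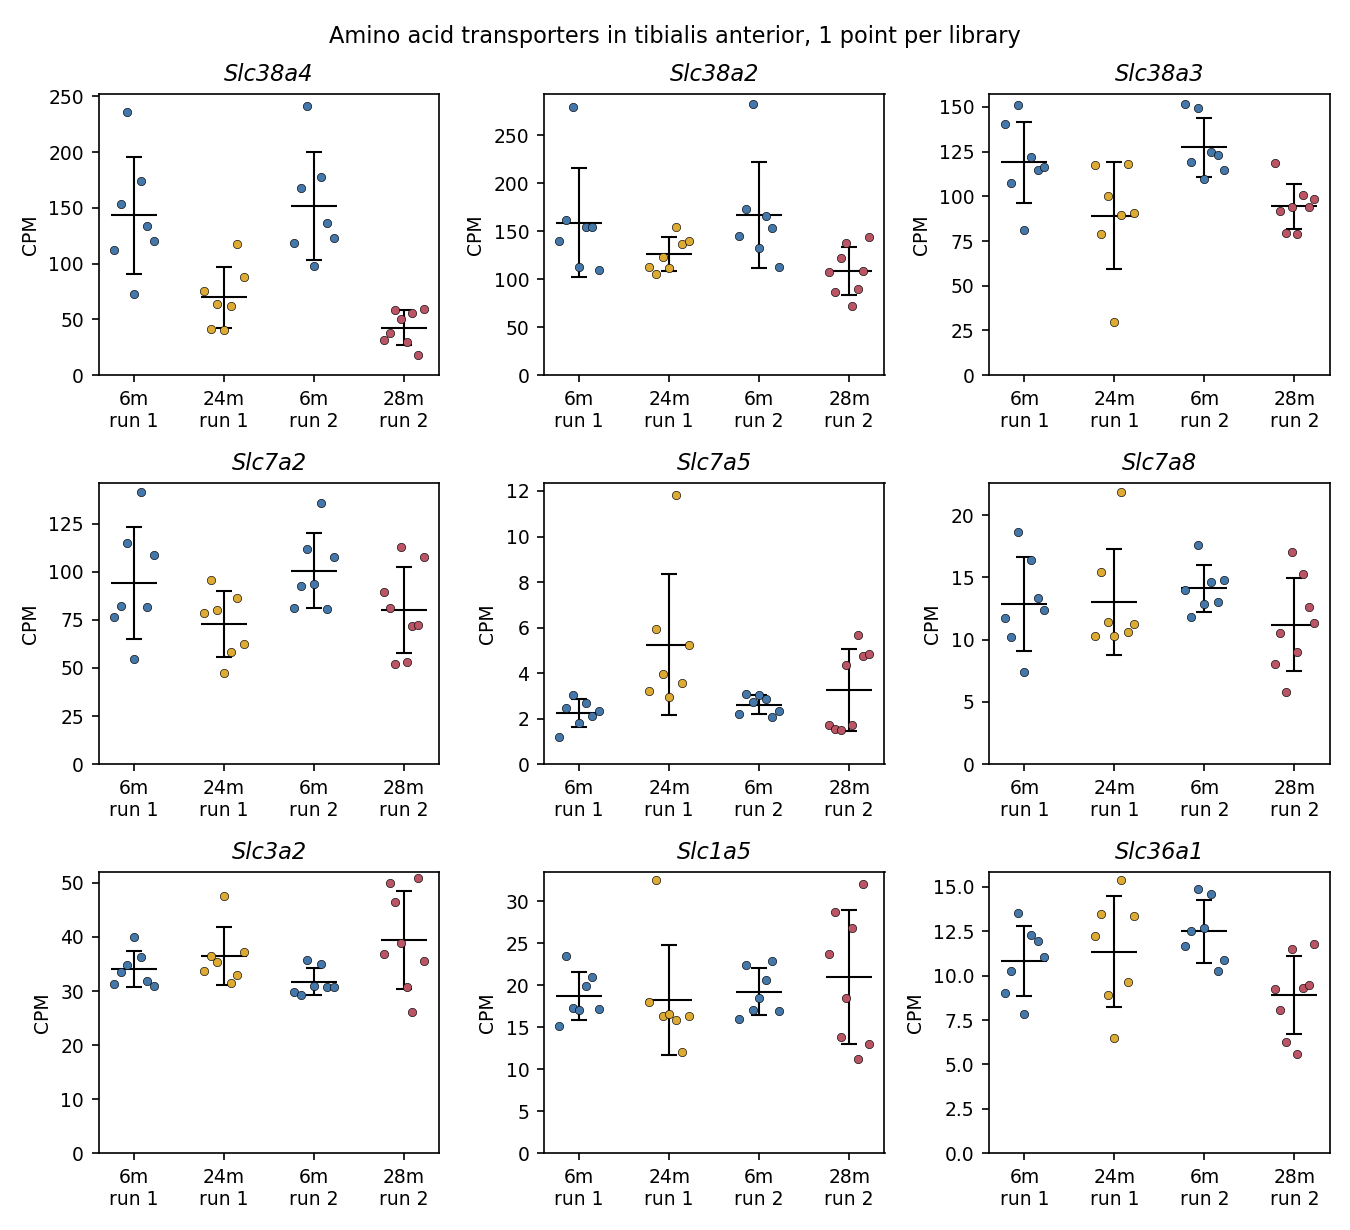
CPM of each transporter in every library (points), by age group and run, with the mean and SD (line and bars). Slc38a4 has no 28m point above 59.5 CPM and no 6m point of the second run under 97.7 CPM, while 4 of the 28m points of Slc7a5 lie above all 6m points, and the other 4, at 1.49 to 1.71 CPM, lie below the 6m points of the second run and within those of the first.

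The comparison of 28m with 6m asks how muscle of the oldest mice differs from that of young adults. Slc38a4, Slc38a2, Slc38a3 and Slc36a1 fell at 28m, 4 of the 9 transporters, and none rose. Of all 12994 genes tested, 22.9% were lower and 24.3% higher at this threshold. The median log2fc of the 9 was -0.32, beside 0.01 over all genes tested. The falls included the 3 members of the Slc38 family among the 9, and Slc7a2, Slc7a5, Slc7a8, Slc3a2 and Slc1a5 did not pass in either direction. Whether these 2 sets differ was not tested. Of the Slc38 genes outside the 9 that were tested, Slc38a7 was lower, and Slc38a1, Slc38a6, Slc38a9, Slc38a10 and Slc38a11 did not pass.

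Slc38a4 (ENSMUSG00000022464.14, chromosome 15, 96994820 to 97055956, minus strand, GRCm38) changed most. Its CPM at 6m was at lowest 97.7, at the median 136.7 and at highest 241.3, and at 28m these values were 18.3, 44.2 and 59.5. Every 28m mouse lay below every 6m mouse, as for 6.66% of the genes tested, while 5.65% had every 28m mouse above. The mean was 42.7 ± 15.4 CPM at 28m (SD, n = 8) and 152 ± 48.4 CPM at 6m (n = 7). The log2fc was -1.83 (SE 0.242, padj = 0.000213 by edgeR's quasi-likelihood test, Benjamini-Hochberg adjusted), a level 3.55-fold lower. It was the only one of the 9 that was a DEG, and 3.37% of the genes tested were DEGs in this direction.

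Slc38a2 (ENSMUSG00000022462.7, chromosome 15, 96687392 to 96699730, minus strand), the carrier that cells raise when amino acids are short, lies on the same chromosome as Slc38a4. Its CPM at 6m ran from 112.7 over a median of 153.4 to 282.8, and at 28m from 71.5 over 108.2 to 143.6. The groups overlapped, with 5 of 8 old mice below all 6m mice and none above. The log2fc was -0.61 (SE 0.182, padj = 0.0130 by edgeR's test). Without the 6m mouse that held the highest value (replicate 3), it was -0.43.

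Slc38a3 (ENSMUSG00000010064.15, chromosome 9, 107650634 to 107669530, minus strand), a carrier of glutamine, asparagine and histidine, ran from 109.8 over 123.1 to 151.4 CPM at 6m and from 78.8 over 94.2 to 118.4 CPM at 28m. All but 1 of the 8 old mice lay below the 6m range. The log2fc was -0.43 (SE 0.0966, padj = 0.00289 by edgeR's test). Slc36a1 (ENSMUSG00000020261.15, chromosome 11, 55204350 to 55236330, plus strand), the lysosomal carrier, ran from 10.2 over 12.5 to 14.9 CPM at 6m and from 5.58 over 9.28 to 11.8 CPM at 28m. Of the 8 old mice, 6 were below all 6m mice. Its log2fc was -0.48 (SE 0.149, padj = 0.0150 by edgeR's test).

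Over the whole table, genes with long transcripts tended to be lower and those with short ones higher at 28m. The rank correlation of exonic length with log2fc was -0.54 across 12871 genes, which are not independent replicates, and the median exonic length was 4490 bases. Slc38a2 has 8838 exonic bases, Slc36a1 5626 and Slc38a3 5277, all above the median, and Slc38a4 has 4261, below it. After each library was corrected for a smooth trend with length and GC content, the log2fc of Slc38a4 was -1.87 (padj = 0.00013 by edgeR's test). Slc38a2 then had -0.30 (padj = 0.180), Slc38a3 -0.24 (padj = 0.0565) and Slc36a1 -0.30 (padj = 0.0594), and none of these 3 passed edgeR's test. Length and GC content were corrected together, and the part of each was not tested. Against the first-run libraries of the 6m mice, Slc38a3 at -0.33 (padj = 0.0551) and Slc36a1 at -0.28 (padj = 0.188) did not pass edgeR's test either, and Slc38a3 also did not pass in a fit of all 29 libraries (padj = 0.0620).

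**Figure D2:**
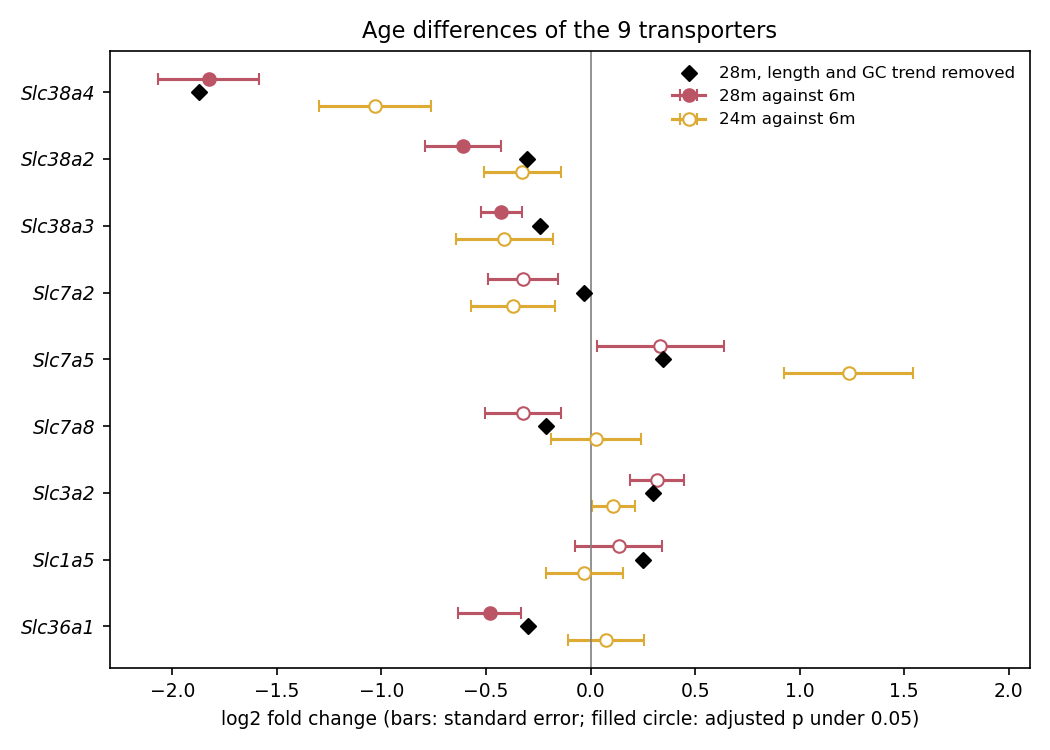
Log2 fold change of each transporter at 28m and 24m against the 6m libraries of the same run (circles, with the standard error as bars; filled where the adjusted p was under 0.05) and at 28m after removal of the length and GC trend (diamonds, drawn with no call). Slc38a4 lies near -1.83 and -1.87 with and without the trend, and Slc38a2 moves from -0.61 to -0.30.

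None of the subunits of the large neutral amino acid exchangers passed at 28m. Slc3a2 (ENSMUSG00000010095.13, chromosome 19, 8706882 to 8723369, minus strand), the heavy chain that brings the light chains to the membrane, was at 29.3 to 35.7 CPM at 6m with a median of 30.7, and at 26.1 to 50.9 CPM at 28m with a median of 37.9. Above all 6m mice lay 5 of the 8 old mice, and 1 lay below. The log2fc was 0.32 (SE 0.129, padj = 0.0501 by edgeR's test), just outside the threshold, and Slc3a2 passed with DESeq2's size factors (padj = 0.0484), with upper-quartile scaling (padj = 0.0314), with at least 10 counts required in every library (padj = 0.0480) and in a fit of all 29 libraries (padj = 0.0255), in which each 6m mouse enters with 2 libraries. It did not pass with DESeq2 (padj = 0.0505), limma-voom (padj = 0.0753), no filter on low counts (padj = 0.0699), removal of the length and GC trend (padj = 0.0860) or the 6m libraries of the other run (0.22, padj = 0.215).

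Slc7a5 (ENSMUSG00000040010.10, chromosome 8, 121881150 to 121907694, minus strand), a light chain of the exchangers that carry leucine, had a split pattern at 28m. Its CPM at 6m lay between 2.07 and 3.07 with a median of 2.74. The 8 mice at 28m had 1.70, 1.56, 1.49, 4.36, 1.71, 5.68, 4.75 and 4.86 CPM (replicates 1 to 8), so 4 were below and 4 above every 6m library of the second run. In the first run the same 6m mice spanned 1.18 to 3.03 CPM, and the 4 low values lie within that range. The mean was 3.26 ± 1.80 CPM at 28m and 2.61 ± 0.413 CPM at 6m, from 31 to 135 and from 48 to 72 counts per library. The log2fc of 0.33 (SE 0.305, padj = 0.376 by edgeR's test) did not pass, and it was 0.17 without 28m replicate 6.

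Slc7a8 (ENSMUSG00000022180.7, chromosome 14, 54722209 to 54781946, minus strand), a second light chain of Slc3a2, ran from 11.8 over 14 to 17.6 CPM at 6m and from 5.80 over 10.9 to 17.03 CPM at 28m, with 5 of 8 old mice below the 6m range and a log2fc of -0.32 (SE 0.183, padj = 0.154 by edgeR's test). The low and high mice were partly those of Slc7a5: Slc7a8 was highest in replicates 4 and 6, at 17.03 and 15.3 CPM, and lowest in replicate 3, at 5.80 CPM. Slc7a2 (ENSMUSG00000031596.15, chromosome 8, 40862396 to 40922308, plus strand), the arginine carrier, ran from 80.9 over 93.6 to 135.7 CPM at 6m and from 52.2 over 76.8 to 112.9 CPM at 28m, with a log2fc of -0.32 (SE 0.166, padj = 0.117 by edgeR's test). Both passed when 28m replicate 4 was left out, Slc7a2 at -0.41 (padj = 0.0423) and Slc7a8 at -0.43 (padj = 0.0460) by edgeR's test. With the length and GC trend removed, Slc7a2, the longest of the 9 at 9135 exonic bases, had -0.03 (padj = 0.866) and Slc7a8 -0.21 (padj = 0.303) by edgeR's test. Exons of Slc7a2 share 635 bases with Gm26584 on the opposite strand, and the strand setting of the counting is not stated.

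Slc1a5 (ENSMUSG00000001918.17, chromosome 7, 16781340 to 16798274, plus strand), the glutamine exchanger, spread widely at 28m. It ran from 16 over 18.6 to 22.95 CPM at 6m and from 11.2 over 21.1 to 32.0 CPM at 28m, with 3 old mice below and 4 above all 6m mice. Its coefficient of variation was 37.9% at 28m and 14.5% at 6m. The log2fc was 0.13 (SE 0.209, padj = 0.612 by edgeR's test), and leaving out 1 mouse gave 0.02 (without 28m replicate 7) to 0.23 (without 28m replicate 6).

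Markers of other cells of the muscle also moved at 28m, and in bulk RNA fewer cells of a type and less RNA per cell cannot be told apart. The counts stand beside 22.9% of all genes lower and 24.3% higher. The sums also include listed genes too low to be tested, and cover 7 satellite cell and 8 immune genes. The endothelial list had 5 of 8 genes lower and 2 higher, and its sum was 274.5 to 385.2 CPM at 28m and 442.0 to 509.7 CPM at 6m. Smooth muscle and pericyte markers had 5 of 8 lower and 1 higher (243.3 to 392.3 CPM at 28m, 375.4 to 460.0 CPM at 6m), and fibroblast markers 4 of 8 lower and 1 higher (367.7 to 1217 CPM and 605.6 to 2914 CPM). Satellite cell markers had 3 of 6 tested lower (29.5 to 49.0 CPM and 43.9 to 54.9 CPM). Fast fibre markers had 4 of 10 higher and 1 lower, with sums of 198600 to 240700 CPM at 28m and 215100 to 233000 CPM at 6m, and slow fibre markers had 4 of 8 higher (127.6 to 272.9 CPM and 99.6 to 150.2 CPM). Adipocyte markers had 2 of 8 higher (169.0 to 631.2 CPM and 189.4 to 230.6 CPM), Schwann and nerve markers 1 of 8 higher (45.1 to 82.3 CPM and 58.9 to 81.0 CPM), and tendon markers 1 lower and 1 higher of 8 (122.1 to 405.2 CPM and 222.3 to 405.6 CPM). None passed of the 6 immune genes tested (28.4 to 170.3 CPM and 25.4 to 79.5 CPM) or of the 3 erythrocyte genes tested (88.8 to 515 CPM and 59.4 to 280.7 CPM, with 2 of its 5 genes at 0 in every library), and of 14 genes that respond to denervation 9 rose. With the length and GC trend removed, where 15.6% of all genes were lower and 21.6% higher, 1 of the 4 fibroblast falls and none of its rises still passed, as did 4 of the 5 endothelial and 4 of the 5 pericyte falls, the 3 satellite cell falls, 2 of the 4 fast fibre and 3 of the 4 slow fibre rises and the 9 denervation rises. In the same setting 1 of the 2 endothelial rises and 1 of the 2 adipocyte calls still passed, the fast fibre fall and the pericyte rise did not, and the Schwann cell and tendon calls did. The part of these cells in the differences of the transporters was not tested.

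Other amino acid transporters are set here beside the 22.9% of all genes that were lower and the 24.3% that were higher at 28m. Of 35 other transporters of the plasma membrane, 17 were expressed enough to be tested, and 2 were lower and none higher. These were Slc6a6, the taurine carrier, with a log2fc of -0.55 (SE 0.188, padj = 0.0261), and Slc16a10, a carrier of aromatic amino acids, with -0.47 (SE 0.143, padj = 0.0141), both by edgeR's test. Of 25 carriers of organelles and mitochondria, 17 were tested, 5 were lower and 1 higher. The lower ones were Slc36a4, a relative of Slc36a1, at -1.53 (SE 0.461, at 0.452 ± 0.398 against 1.32 ± 0.217 CPM), Slc38a7, a lysosomal glutamine carrier, at -0.42, Slc15a4 at -0.40, Slc25a44, a mitochondrial carrier of branched-chain amino acids, at -0.38 and Slc25a15, the ornithine carrier, at -0.25. Slc25a38, the glycine carrier of mitochondria, was higher by 0.30. After removal of the length and GC trend, Slc36a4 (-1.40) and Slc38a7 (-0.35) still passed among these 8 genes.

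A list of 32 tested genes covered amino acid sensing upstream of mTORC1, mTORC1 itself (Mtor, Rptor, Mlst8) and its regulators Tsc1, Tsc2 and Rheb. Of these, 10 fell and 9 rose at 28m, shares near those of all genes (22.9% lower and 24.3% higher). Against the 6m libraries of the other run 2 fell and 2 rose, where 11% of all genes were lower and 12% higher. The largest falls were those of Tsc1, an inhibitor of the pathway, at -0.73, the kinase Mtor at -0.71, Castor2, a paralogue of the arginine sensor Castor1, at -0.68, Depdc5, a subunit of the inhibitory GATOR complex, at -0.63, and Rptor, the mTORC1 scaffold, at -0.63. The largest rises were those of Lamtor4 at 0.71, Lamtor2 at 0.67, Lamtor5 at 0.59 and Lamtor1 at 0.37, subunits of the lysosomal anchor of the Rag GTPases, and of Seh1l at 0.38. The genes that fell had exonic lengths of 4435 to 13471 bases and those that rose 884 to 4151 bases. With the length and GC trend removed, 3 of the 10 and 5 of the 9 still passed, and of the genes named here Tsc1 (-0.29), Mtor (-0.34), Depdc5 (-0.21), Rptor (-0.12), Lamtor2 (0.21), Lamtor4 (0.26) and Lamtor5 (-0.01) did not.

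Of 26 tested genes of branched-chain amino acid and glutamine metabolism, which use the transported amino acids, 12 rose and 2 fell, where 24.3% of all genes were higher and 22.9% lower. Their median log2fc was 0.20, and against the 6m libraries of the other run 4 rose, where 12% of all genes were higher. On leaving out 1 mouse, 11 to 13 rose and 0 to 3 fell. Glul, which makes glutamine, rose from 141 ± 27.7 to 315 ± 132 CPM, a log2fc of 1.17 (SE 0.232, padj = 0.00149 by edgeR's test). Asns, which makes asparagine, rose by 0.70, Bckdhb, a subunit of the branched-chain ketoacid dehydrogenase, by 0.57, Bcat2, the mitochondrial branched-chain transaminase, by 0.47 and Gpt, an alanine transaminase, by 0.42. Pcca, a subunit of propionyl-CoA carboxylase, was lower at -0.24. With the length and GC trend removed, 9 of the 12 still passed, among them Glul (1.08), Asns (0.49), Bcat2 (0.52) and Gpt (0.36), and Bckdhb (0.18) and Pcca (-0.14) did not.

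**Figure D3:**
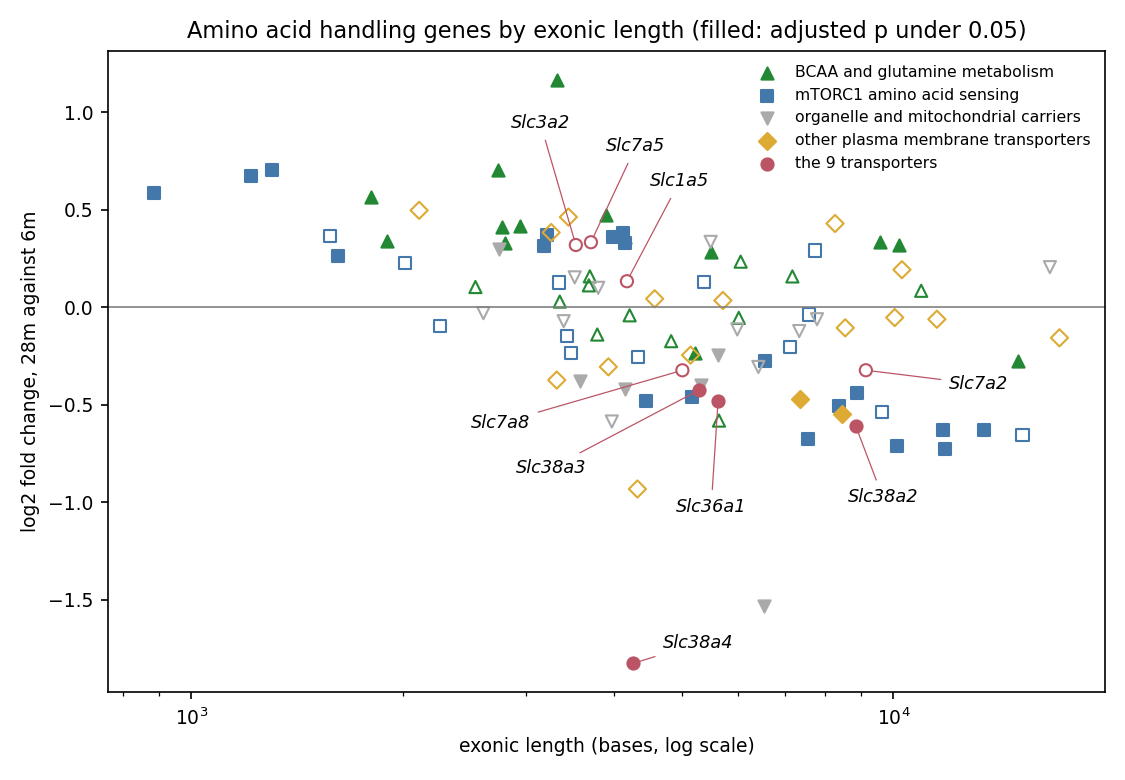
Log2 fold change at 28m against exonic length (log axis) for the 9 transporters and 4 lists of genes of amino acid transport, mTORC1 sensing and amino acid metabolism (filled where the adjusted p was under 0.05). Values fall with length in the list of mTORC1 sensing, and Slc38a4, at 4261 bases and -1.83, lies below every other point.

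The comparison of 24m with 6m asks whether the younger of the old ages already differed, with libraries of the first run. No transporter passed edgeR's test, and 2 of the 9 had an unadjusted p under 0.05, Slc38a4 and Slc7a5. Of all 13103 genes, 0.0229% were lower and 0.0611% higher at the threshold, 11 genes by edgeR's test, 1546 at an unadjusted p under 0.05 and 215 by DESeq2. Every 24m mouse lay below every 6m mouse in 0.252% of genes and above in 0.343%, and no transporter did either.

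Slc38a4 at 6m in the first run was at lowest 72.4, at the median 133.8 and at highest 236.1 CPM, and at 24m 40.7, 63.8 and 117.9 CPM. Of the 7 mice at 24m, 4 lay below all 6m mice. The log2fc was -1.03 (SE 0.269, padj = 0.192 by edgeR's test), and with DESeq2 Slc38a4 passed (padj = 0.0204). Slc7a5 was at 1.18 to 3.03 CPM at 6m with a median of 2.35, and at 2.96 to 11.8 CPM at 24m with a median of 3.95. All but 1 of the 7 mice at 24m lay above all 6m mice. The log2fc was 1.23 (SE 0.307, padj = 0.166 by edgeR's test), with 29 to 75 counts in a 6m library and 83 to 378 in a 24m library, and Slc7a5 passed with DESeq2 (1.22, padj = 0.0132) and in a fit of all 29 libraries (padj = 0.0486 by edgeR's test), which counts both libraries of a 6m mouse as separate samples. Without the highest 24m mouse (replicate 5), it was 0.90.

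The other 7 transporters had smaller differences at 24m. Slc38a3 had a log2fc of -0.41 (SE 0.232), and 24m replicate 4 was at 29.7 CPM where the other 24m mice had 78.7 to 117.8 CPM. Without that mouse the value was -0.26. Slc38a2 had -0.33 (SE 0.184), and -0.12 without 6m replicate 3, and Slc7a2 had -0.37 (SE 0.201), and -0.25 without 6m replicate 5. The values were for Slc3a2 0.11 (SE 0.103), Slc36a1 0.07 (SE 0.181), Slc7a8 0.03 (SE 0.215) and Slc1a5 -0.03 (SE 0.185). None of the 4 lists of other genes had a member that passed at 24m by edgeR's test.

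No marker gene passed at 24m either, but the sums of some lists spread more widely than at 6m. Slow fibre markers summed to 135.1 to 502.1 CPM at 24m and 99.8 to 156.3 CPM at 6m (median log2fc of the 8 genes 1.14). The 8 immune markers summed to 21 to 231.5 CPM and 24.4 to 79.3 CPM (median log2fc of the 6 genes tested 1.02), and the 14 denervation genes had a median log2fc of 2.67. Fast fibre markers summed to 145200 to 242800 CPM and 207500 to 231600 CPM. The part of these in the values of Slc38a4 and Slc7a5 at 24m was not tested.

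The difference between the age effects was tested in one model of all libraries, and no transporter and 0.0% of 13455 genes passed edgeR's test, while 1611 genes had an unadjusted p under 0.05 and DESeq2 called 2. The difference in log2fc (28m effect minus 24m effect) was -0.78 for Slc38a4 (SE 0.367, padj = 0.412), -0.89 for Slc7a5 (SE 0.443, padj = 0.424) and -0.54 for Slc36a1 (SE 0.231, padj = 0.399) by edgeR's test, and between -0.34 and 0.23 for the other 6. Without 24m replicate 5 the value of Slc7a5 was -0.56. Among the fits that left out 1 mouse, only that without 24m replicate 4 had a transporter that passed, Slc36a1 at -0.63 (padj = 0.0488 by edgeR's test). The 2 age comparisons use the same 6m animals.

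The 7 mice at 6m, prepared in both runs, show how well a level is measured in 1 animal. Comparing the 6m libraries of the runs, no transporter and 0.0% of 12884 genes passed edgeR's test, with 357 genes at an unadjusted p under 0.05, and with the mouse as a replicate block no transporter passed either. Slc38a4 was higher in the second run in 7 of 7 mice, by 0.03 to 0.43 on the log2 scale (log2fc 0.11, padj = 0.498 by edgeR's test with the block). Slc38a4 kept the rank of every mouse, 7 of 7, and so did Slc38a2. The mouse with the highest Slc38a4 (replicate 3) had 236.1 CPM in the first run and 241.3 CPM in the second, and the lowest (replicate 4) had 72.4 and 97.7 CPM. The SD of log2 CPM within mice was 0.123 for Slc38a4 and 0.0736 for Slc38a2, and between mice 0.483 and 0.431. These carriers varied less between libraries of a mouse than between mice, whereas for Slc7a5 the SD within mice was 0.310 and between mice 0.283, and for Slc36a1 0.242 and 0.189. Without the mouse whose libraries differed most, the SDs within and between mice were 0.0459 and 0.392 for Slc38a4, 0.0436 and 0.440 for Slc38a2, 0.229 and 0.174 for Slc7a5 and 0.170 and 0.183 for Slc36a1. The libraries of replicate 4 differed most in 7 of the 9 transporters, and over all genes the SD of their log2 difference was 0.605, where the other mice had 0.204 to 0.245.

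**Figure D4:**
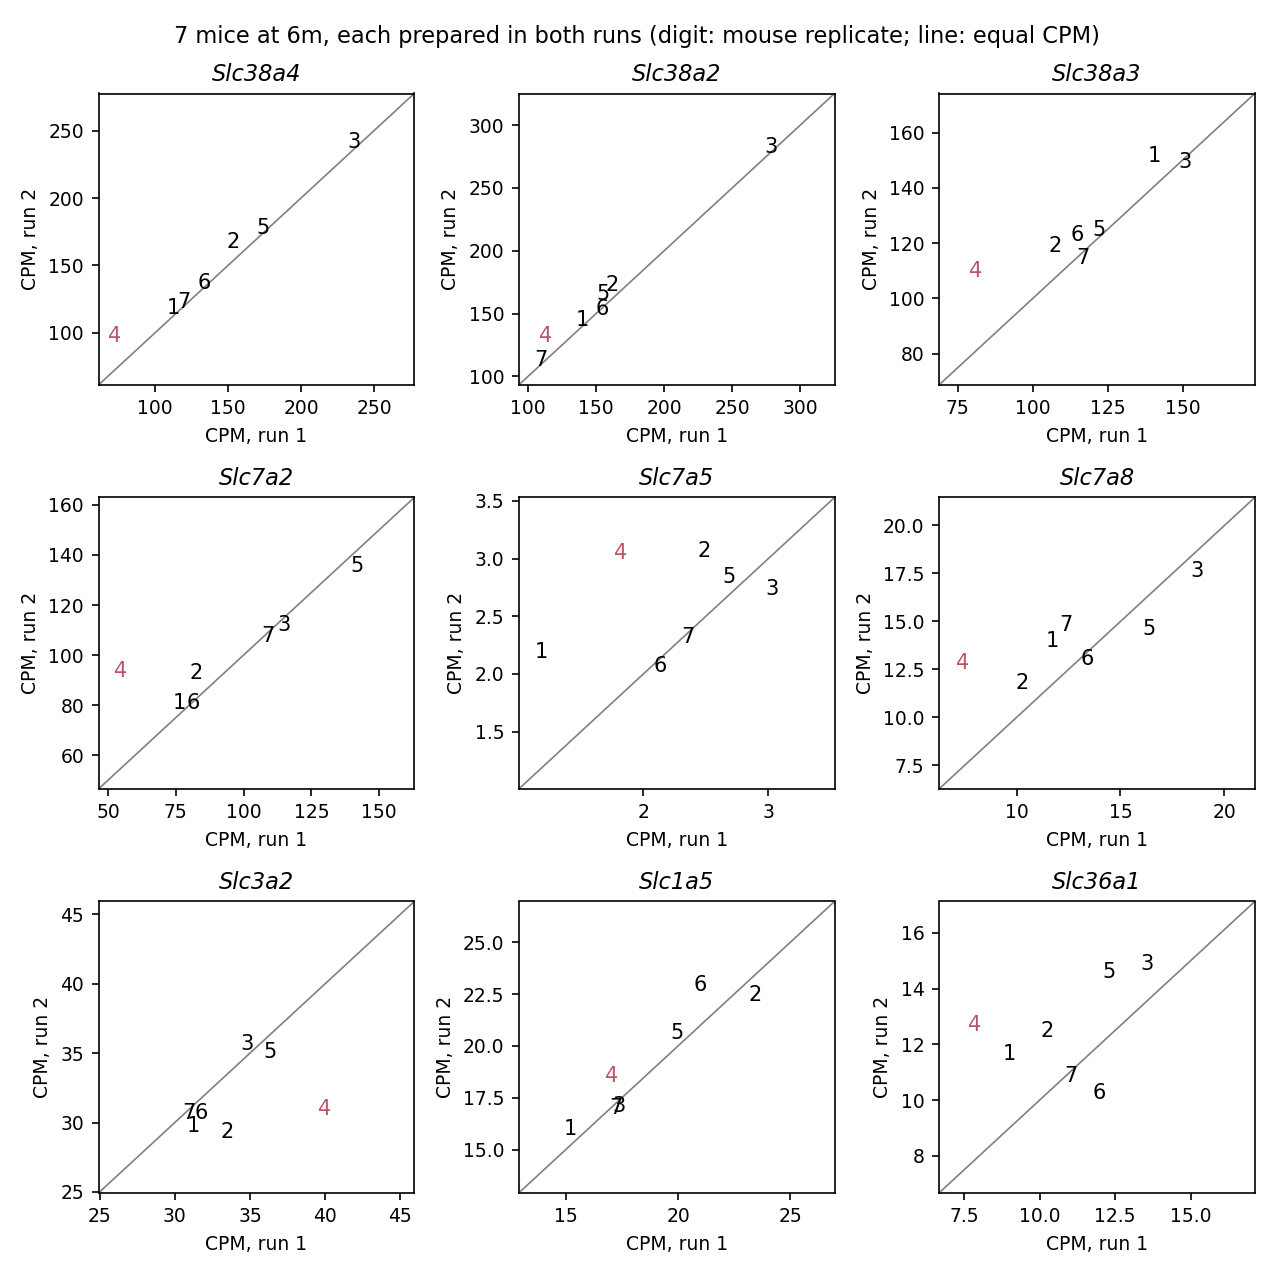
CPM of each transporter in the 7 mice at 6m, first run against second run (digits are mouse replicates, replicate 4 in red; the line marks equal CPM). Apart from replicate 4, Slc38a4 and Slc38a2 lie close to the line up to 241.3 and 282.8 CPM, and replicate 4 is the mouse farthest from it, on the log2 scale, in 7 of the 9 transporters.

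Transporters that act as partners were compared within runs, as deviations of log2 CPM from the mean of the age group. The length and GC trend was not removed here. Of the heterodimers, Slc7a5 and Slc3a2 had a Pearson r of -0.29 (Spearman 0.02, n = 14) in the first run and -0.27 (Spearman -0.26, n = 15) in the second, and Slc7a8 and Slc3a2 had -0.38 (Spearman -0.32) and -0.18 (Spearman 0.06). Slc7a5 had an r of 0.29 and -0.34 with Slc1a5, and of 0.44 and 0.31 with Slc38a2. None of the 8 values passed a two-sided permutation test within age groups, with Benjamini-Hochberg adjusted p values between 0.495 and 0.643. Without the 2 libraries farthest from the median, r in the second run was 0.17 for Slc7a5 and Slc3a2.

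The genes whose log2 CPM followed Slc38a4 most closely over the 29 libraries were Fam65b (Pearson r = 0.94), Ggcx, the vitamin K-dependent carboxylase (0.94), Smurf2, a ubiquitin ligase (0.92), Cdc37l1, a co-chaperone (0.92), and Zbtb40, a zinc finger protein (0.92), out of 12942 genes. The libraries share ages and mice, so this is a description. Within the 4 groups, r was 0.76 to 0.80 for these 5. Among the transporters, Slc38a2 was the nearest at 0.77 (rank 555), then Slc38a3 at 0.60, and Slc3a2 was the farthest at -0.50.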

How the data were processed

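RNA of 29 TA libraries of 22 mice was analysed. The authors aligned 75-base single-end reads of poly-A libraries to mm10 with STAR 2.5.4b and deposited the count of reads on each of 22537 gene symbols, without normalization. Their strand setting is not stated. Groups and the mouse behind each repeated 6m library came from the labels.

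Counts were filtered with filterByExpr, scaled by TMM and tested with edgeR 4.0.16 (R 4.3.3), by quasi-likelihood F tests adjusted after Benjamini-Hochberg, with a threshold of 0.05, on the libraries of each comparison. SEs were derived from the test. P values measure the spread between mice, except in fits of both runs, where each 6m mouse enters with 2 libraries. Log2 CPM used a prior count of 2. Correlations used 100000 permutations. GENCODE for GRCm38 gave exonic length, GC content and positions, matched by symbol (20202 genes) or synonym (1897), with 438 unmatched. Listed genes are printed by current names, and the genes most like Slc38a4 by their deposited symbols. Scripts were tested on simulated data.

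The members and lists were chosen with earlier results of these data known. All 9 transporters are named, and of each other list at most the 5 genes with the largest absolute log2fc per direction that passed, and the 5 genes most like Slc38a4. A gene singled out outside this rule was chosen after its values were seen. Markers are described by counts and sums. The values of 1 listed gene are not reported here. Alternatives were DESeq2 1.42.0, limma-voom (limma 3.58.1), DESeq2's size factors, upper-quartile scaling, other filters on low counts, all 29 libraries in a fit, the 6m libraries of the other run, removal of the length and GC trend, the mouse as a block and leaving out each mouse.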

Additional observations from a re-analysis of the deposited data

Results flagged for a closer look

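Of 36 groups of libraries examined (9 transporters in 4 groups), 5 held a library far from the rest by Dixon's test at 95%, and chance gives about 1 in 20 such groups. Slc38a2 was at 278.9 CPM in 6m replicate 3 of the first run, where the next mouse had 162.1 CPM, and the same mouse had 282.8 CPM in the second run beside 172.8 CPM in the next, so the high value was measured in both libraries of the animal. At 24m, Slc7a5 was at 11.8 CPM in replicate 5 (next 5.96 CPM), Slc3a2 at 47.6 CPM in replicate 4 (next 37.3 CPM) and Slc1a5 at 32.5 CPM in replicate 2 (next 18.03 CPM). Leaving these mice out moved the log2fc at 24m of Slc7a5 from 1.23 to 0.90, of Slc3a2 from 0.11 to 0.03 and of Slc1a5 from -0.03 to -0.23, and without 6m replicate 3 that of Slc38a2 went from -0.33 to -0.12 at 24m and from -0.61 to -0.43 at 28m.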

How the results depend on the processing

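The falls of Slc38a4, Slc38a2, Slc38a3 and Slc36a1 at 28m passed in all 15 fits that left out 1 mouse. The cause of the changes below was not tested, unless named. Of the 9 transporters, 4 lower at 28m, the count was 2 against the 6m libraries of the other run, where 11% of all genes were lower, and 1 with the length and GC trend removed, where 15.6% were. Without 6m replicate 4 in that other run, a setting chosen after seeing the data, it was 3 (17.8% of all genes lower), and Slc36a1 did not pass (-0.35). The count of transporters higher at 28m was 1, Slc3a2, with DESeq2's size factors, upper-quartile scaling, at least 10 counts in every library and all 29 libraries in a fit (21.2% to 27.5% of all genes higher), and 0 to 1 on leaving out 1 mouse, where it passed without 28m replicates 5, 6 or 8. At 24m, DESeq2 called 1 lower and 1 higher (0.237% and 0.894% of all genes) and the fit of all libraries 1 higher (0.988%). Of the other transporters at 28m, 7 lower and 1 higher, the counts of lower ones were 4 with all libraries in a fit (18.6% of all genes lower), 1 with the other run (11%), 3 with it without 6m replicate 4 (17.8%) and 2 with the trend removed (15.6%), and of higher ones 2 with DESeq2 (18.8% of all genes higher), 3 with upper-quartile scaling (27.5%), 3 with no filter (16.5%) and 4 with the trend removed (21.6%). Leaving out 1 mouse gave 4 to 8 lower, with 4 in the fits without 6m replicate 5, 6m replicate 6 or 28m replicate 5, and 1 to 2 higher. The trend removal also took the falls in mTORC1 sensing from 10 to 4, and the other run took them to 2 with 2 rises.

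Against the other run, the log2fc at 24m turned to -0.11 for Slc7a8 and -0.13 for Slc36a1. Leaving out 1 mouse at 24m gave -0.14 to 0.15 for Slc7a8, -0.23 to 0.0475 for Slc1a5 and -0.0070 to 0.17 for Slc36a1. For the difference between age effects it gave -0.14 to 0.0737 for Slc38a3, -0.0305 to 0.14 for Slc7a2 and 0 to 1 transporters that passed. The correlations of the second run turned to 0.174 (Slc7a5 and Slc3a2) and 0.0043 (Slc7a8 and Slc3a2) without 2 libraries. With the mouse as a replicate block, no transporter passed in the difference (count 0, Slc38a4 at -0.81) or between the runs (count 0, Slc38a4 at 0.11), and neither did any gene of all those tested (0.0%). The pairing of the 6m libraries comes from their titles. At 29 to 378 counts per library, Slc7a5 was the transporter measured with the fewest reads.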

Other observations

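All 36 pairs of transporters were compared within each run after the data were seen, 72 values adjusted together. Log2 CPM was used with no removal of the length and GC trend, whose part in these correlations was not tested. Slc7a2, the arginine carrier, and Slc36a1, the lysosomal carrier, deviated together in the second run (Pearson r = 0.87, n = 15, permutation p = 0.00028, adjusted p = 0.0202; Spearman rho = 0.78, permutation p = 0.00229, adjusted p = 0.055), with r = 0.79 without the 2 libraries farthest from the median, 0.71 within 6m and 0.93 within 28m. In the first run r was 0.52 (n = 14, permutation p = 0.0545, adjusted p = 0.188), and the relation did not pass there. By rank, Slc36a1 also followed Slc7a5 (rho = 0.82, permutation p = 0.00127, adjusted p = 0.049) and Slc7a8 (rho = 0.79, permutation p = 0.00136, adjusted p = 0.049) in the first run, with Pearson r of 0.75 and 0.74 (adjusted p = 0.0659 for each) by permutation. The first-run r of these pairs was 0.76 (Slc7a5) and 0.62 (Slc7a8) without the 2 libraries farthest from the median. Within 6m it was 0.74 and 0.93, and within the older mice 0.76 and 0.65. In 6m replicate 4, the second-run library was higher by 0.72 (Slc7a5), 0.79 (Slc7a8) and 0.69 (Slc36a1) on the log2 scale. The part of its first-run library in these correlations was not tested. In the second run the same pairs had r of 0.72 and 0.65 (0.72 and 0.48 within 6m) and did not pass after adjustment. The light chains Slc7a5 and Slc7a8 had r of 0.75 (rho = 0.70) in the first run and 0.74 (rho = 0.69) in the second, and neither value passed after adjustment (adjusted p = 0.0659 and 0.112 by permutation for r). The 6m mice are the same in both runs, so the runs are not separate samples of animals.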
